A study of Homo sapiens with 60 samples.

Results

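The 47 genes described here make up the machinery that copies DNA and supplies its building blocks. They are the subunits of DNA polymerases alpha, delta and epsilon with primase, the sliding clamp PCNA with its loader, the single-strand binding protein RPA, the CDC45 and GINS parts of the helicase, the factors that fire origins, the enzymes that finish Okazaki fragments, the enzymes of nucleotide supply and uracil removal, and genes of fork protection, chromatin assembly and S phase entry. They were taken by symbol from a given list, and each was read from the probe set with the highest mean over all arrays. All 47 had a value, among 19775 genes with a single named probe set or more. Of the 47 members, 34 were bright enough to be tested in each of the 3 cell lines, 8 in 1 or 2 lines, and 5 (POLA1, PRIM2, RFC1, CDC7 and WDHD1) in none.

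In a dividing cell, the origin recognition complex marks the start sites, the kinase CDC7 with its activator DBF4 switches on the helicase by bringing CDC45 and GINS to the MCM ring, and polymerase alpha with primase lays down the primers that polymerases delta and epsilon extend on PCNA. Ribonucleotide reductase, thymidylate synthase and thymidine kinase make the deoxynucleotides, while dUTPase and uracil-DNA glycosylase keep uracil out of DNA. Many of these genes are known targets of E2F transcription factors, which drive them as cells pass from G1 into S phase.

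Expression was measured on 60 Affymetrix arrays of 3 human breast lines, each given 4 treatments with 5 independent experiments per group (numbered 1, 2, 3, 4 and 6). HB4a cells derive from normal human mammary epithelium. C5.2 (C5.2a in some labels) was made from HB4a by introducing a HER-2 cDNA, so it may differ from HB4a in more than the receptor, and SKBR3, from an adenocarcinoma of the breast, overexpresses HER-2 itself. The 4 treatments were DMSO vehicle, 30 nM doxorubicin, 20 nM rapamycin, and both together at the same doses. Doxorubicin is a topoisomerase II poison that damages DNA, and rapamycin inhibits the mTORC1 kinase complex. The labels give no treatment time. The medium of HB4a and C5.2 held insulin and hydrocortisone, and that of SKBR3 held neither. Values are RMA summaries on the log2 scale, so a difference of 1 is a 2-fold change in signal. A difference was called where limma's adjusted p was under 0.05. These p-values measure the spread between the 5 experiments of a group.

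ERBB2, the gene of HER-2, read between 6.34 and 6.86 on the vehicle arrays of HB4a, 11.63 and 12.23 in C5.2, and 10.87 and 11.72 in SKBR3. On vehicle arrays the mean of 8 luminal breast genes lay between 7.72 and 7.88 in HB4a, 6.17 and 6.85 in C5.2, and 7.0 and 7.74 in SKBR3. Basal and myoepithelial genes (4 with a value of 6 listed) averaged 6.24 to 6.56 in HB4a, 4.70 to 5.69 in C5.2 and 0.91 to 2.29 in SKBR3, and mesenchymal genes 6.09 to 6.28, 7.70 to 7.95 and 2.02 to 3.67. The highest SKBR3 values of both lists came from the vehicle array of experiment 3. Leukocyte markers averaged at most 1.99 and endothelial markers at most 2.54 on vehicle arrays. Arrays of HB4a experiment 1, the HB4a rapamycin array of experiment 4, C5.2 experiment 2 and SKBR3 experiment 1 stood apart in earlier results of these data. Their deviations from group means were 0.229 to 0.504 log2 units (root mean square over genes), against 0.142 to 0.365 for the other arrays, so the ranges overlap. Since the labels name no batches, a batch that goes with a cell line cannot be told apart from it.

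Promoters of 4 members are shown because the results turn on these genes: UNG, whose signal fell with doxorubicin in HB4a and C5.2, and TYMS, UHRF1 and RRM2, among the members that fell most with rapamycin in SKBR3. Each is the RefSeq window on GRCh38.p14 from 250 bases before to 50 after the annotated start, 5′ to 3′ on the plus strand, which is the strand of each gene. Where RefSeq lists several starts, the window with the most matches is shown, and for UHRF1 the first of 2 windows with 3 matches each. Capitals mark matches on either strand to TTTNNCGC (an E2F motif) or CCAAT (the NF-Y motif).
UNG (chr12:109097922-109098221): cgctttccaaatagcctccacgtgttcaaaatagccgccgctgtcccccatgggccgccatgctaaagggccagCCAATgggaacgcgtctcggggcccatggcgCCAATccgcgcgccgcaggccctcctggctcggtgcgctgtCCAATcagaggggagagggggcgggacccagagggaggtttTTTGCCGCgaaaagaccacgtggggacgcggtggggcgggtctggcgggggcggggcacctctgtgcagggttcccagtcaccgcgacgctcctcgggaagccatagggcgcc
TYMS (chr18:657403-657702): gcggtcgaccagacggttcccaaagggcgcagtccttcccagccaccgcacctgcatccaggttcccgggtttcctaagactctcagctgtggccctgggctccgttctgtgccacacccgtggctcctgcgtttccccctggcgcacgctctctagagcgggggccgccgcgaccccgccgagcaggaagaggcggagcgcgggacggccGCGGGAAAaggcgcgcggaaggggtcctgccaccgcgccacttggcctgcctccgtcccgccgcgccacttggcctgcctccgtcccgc
UHRF1 (chr19:4909251-4909550): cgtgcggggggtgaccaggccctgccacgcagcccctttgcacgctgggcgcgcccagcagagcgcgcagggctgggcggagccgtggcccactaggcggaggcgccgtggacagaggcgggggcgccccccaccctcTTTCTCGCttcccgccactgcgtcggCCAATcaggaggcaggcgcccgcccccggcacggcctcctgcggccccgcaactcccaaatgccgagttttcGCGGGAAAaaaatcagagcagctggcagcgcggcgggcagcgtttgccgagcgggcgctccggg
RRM2 (chr2:10122489-10122788): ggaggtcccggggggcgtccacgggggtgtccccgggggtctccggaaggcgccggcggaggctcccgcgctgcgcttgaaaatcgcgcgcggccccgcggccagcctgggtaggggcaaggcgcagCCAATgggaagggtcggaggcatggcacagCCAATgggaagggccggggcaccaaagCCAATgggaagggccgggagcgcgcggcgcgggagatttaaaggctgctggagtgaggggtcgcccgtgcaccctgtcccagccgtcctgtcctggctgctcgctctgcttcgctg
In the UNG window the E2F match began 63 bases before the start, with CCAAT at 176, 145 and 104 bases before it. TYMS held an E2F match 39 bases before the start and no CCAAT. UHRF1 held E2F matches 112 and 14 bases before the start and CCAAT at 86 bases before it. In RRM2 the window held CCAAT at 123, 93 and 66 bases before the start and no E2F match. Over the 42 member genes with a window, 23 genes (54.8%) held TTTNNCGC in at least 1 window, against 8.23% of 27305 genes. CCAAT stood in 24 member genes (57.1%), against 39.7% of genes. The CHR motif TTTGAA, known from genes of G2 and mitosis, stood in 4 (9.52%), against 18.2%. The motifs do not overlap one another in the printed windows, and a match in this window is a description of its letters.

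Rapamycin lowered most of the replication machinery in SKBR3. Of 36 members tested, 29 fell and none rose, where 18.3% of all tested genes were called and 10.8% were lower. Over all 47 members the median difference was -0.64, against 0.01 over all genes, which include those too dim to test. Among genes tested, the median was -0.64 for the members and -0.03 for all. Differences were below 0 in 45 of 47 members. In 38 members the rapamycin array was lower than the vehicle array of the same number in all 5 experiments. The share of all genes is not given for these counts of direction. The groups did not overlap for 21 of the called members, and 11.8% of all tested genes were called with groups apart. Fewer cells in S phase and less RNA of these genes per cell cannot be told apart in bulk RNA. Without the vehicle array of experiment 3, which carried the high mesenchymal and basal signal, 28 members were called, all of them among the 29.

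Nucleotide supply fell in SKBR3 with rapamycin in 5 of its 6 members. TYMS, thymidylate synthase, which makes dTMP from dUMP, read 8.94, 8.49, 8.85, 8.90 and 8.55 in vehicle and 7.52, 7.05, 7.60, 7.65 and 7.65 with rapamycin in experiments 1, 2, 3, 4 and 6. Every rapamycin array lay below every vehicle array, and the array of experiment 2 was the lowest. The difference was -1.25 ± 0.11 (SE, adjusted p = 9.31e-08), a 2.38-fold fall. RRM2, the regulated small subunit of ribonucleotide reductase, read 8.82, 8.99, 9.29, 9.06 and 9.05 in vehicle against 7.80, 7.66, 8.05, 7.84 and 8.11 with rapamycin. These groups did not overlap either, and RRM2 differed by -1.15 ± 0.11 (SE, adjusted p = 3.88e-07), a 2.22-fold fall. Its large partner RRM1 differed by -0.73 ± 0.21 (SE, adjusted p = 0.0161), a call lost without the vehicle array of experiment 1 or the rapamycin array of experiment 3. TK1, the thymidine salvage kinase, differed by -0.78 ± 0.12 (SE, adjusted p = 0.000141), and DUT, the dUTPase, by -0.43 ± 0.09 (SE, adjusted p = 0.00241). UNG was the member of this role that was not called, at -0.15 (adjusted p = 0.347).

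The helicase and origin firing genes fell in all 6 members tested. CDC45, the helicase subunit loaded at firing, read 5.91, 5.45, 5.65, 5.58 and 5.40 in vehicle and 4.52, 4.09, 4.68, 4.52 and 4.29 with rapamycin. All rapamycin arrays stood below all vehicle arrays, with a difference of -1.18 ± 0.13 (SE, adjusted p = 1.58e-06). GINS1, the PSF1 subunit of GINS, read 7.96, 7.82, 7.84, 7.69 and 7.56 and then 7.06, 6.73, 6.55, 6.72 and 6.38, again without overlap. Its difference was -1.09 ± 0.12 (SE, adjusted p = 2.46e-06), while GINS2 differed by -1.0 ± 0.13 (SE, adjusted p = 1.04e-05) and GINS3 by -0.51 ± 0.11 (SE, adjusted p = 0.00233). DBF4, which activates CDC7, read 6.97, 6.28, 6.98, 7.23 and 6.55 in vehicle and 5.69, 5.30, 5.87, 6.24 and 5.07 with rapamycin. Its groups were apart by a narrow margin, 6.28 in the lowest vehicle array against 6.24 in the highest rapamycin array. The difference was -1.17 ± 0.27 (SE, adjusted p = 0.00413). ORC6, a subunit of the origin recognition complex, differed by -0.60 ± 0.12 (SE, adjusted p = 0.00097). ORC1, CDC7 and GINS4 were too dim in SKBR3 to be tested, with differences of -1.01, -1.12 and -0.51.

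At the fork itself, the clamp, its loader and RPA fell in 7 of 8 tested members, and all 3 genes of flap removal and ligation fell. PCNA, the sliding clamp, read 9.36, 8.89, 9.21, 9.34 and 8.91 in vehicle and 8.25, 7.93, 8.29, 8.32 and 8.06 with rapamycin. Its groups did not overlap, and the difference was -0.97 ± 0.11 (SE, adjusted p = 2.55e-06). Among the clamp loader subunits, RFC4 differed by -0.77 ± 0.14 (SE, adjusted p = 0.000505) and RFC2 by -0.65 ± 0.11 (SE, adjusted p = 0.000237). RFC3 differed by -0.61 ± 0.21 (SE, adjusted p = 0.0445), a call lost in 6 of the 10 fits that left out 1 array, and RFC5 was not called at 0.11 (adjusted p = 0.784). The 3 RPA subunits had the smallest differences of the called members. RPA1 differed by -0.36 ± 0.09 (SE, adjusted p = 0.00869), RPA3 by -0.30 ± 0.09 (SE, adjusted p = 0.0185) and RPA2 by -0.32 ± 0.11 (SE, adjusted p = 0.0498), and the RPA2 call was lost in 7 of those 10 fits. The RPA3 call was lost without the vehicle array of experiment 1 or the rapamycin array of experiment 2. FEN1, the flap endonuclease, differed by -0.75 ± 0.10 (SE, adjusted p = 1.70e-05), RNASEH2A, the catalytic subunit of RNase H2, by -0.69 ± 0.13 (SE, adjusted p = 0.00085), and LIG1, which seals the fragments, by -0.60 ± 0.10 (SE, adjusted p = 0.000227).

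Calls were fewer among the polymerases. Of 5 polymerase and primase members tested in SKBR3, only POLA2, the B subunit of polymerase alpha, was called with rapamycin, at -0.64 ± 0.13 (SE, adjusted p = 0.00175). POLD1, the catalytic subunit of polymerase delta, was at -0.46 (adjusted p = 0.0706), PRIM1, the catalytic primase subunit, at -0.41 (adjusted p = 0.0715), and POLD2 at -0.21 (adjusted p = 0.359). POLE2, the second subunit of polymerase epsilon, was untested within SKBR3 because its values passed log2 5 on too few arrays. It read 5.40, 4.43, 4.55, 4.99 and 4.49 in vehicle and 3.62, 3.19, 3.30, 3.50 and 3.10 with rapamycin, groups that did not overlap, at a difference of -1.43. Whether the polymerases differed from the other roles in their response was not tested.

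Chromatin and control genes fell as well. UHRF1, which binds newly copied DNA methylated on 1 strand, read 6.23, 6.30, 6.58, 6.70 and 6.33 in vehicle and 5.23, 4.98, 5.18, 5.27 and 5.13 with rapamycin. No arrays overlapped, and its difference was -1.27 ± 0.11 (SE, adjusted p = 7.62e-08), a 2.41-fold fall. ATAD2, a bromodomain ATPase of chromatin, differed by -1.25 ± 0.28 (SE, adjusted p = 0.00332) with overlapping groups. CHAF1A, the large subunit of the histone chaperone CAF-1, differed by -0.57 ± 0.12 (SE, adjusted p = 0.00241), and SLBP, which binds the stem-loop of replication-type histone mRNAs, by -0.38 ± 0.10 (SE, adjusted p = 0.00925). Of the S phase regulators, E2F2 differed by -0.95 ± 0.12 (SE, adjusted p = 1.21e-05) and DTL, a ubiquitin ligase receptor that acts on PCNA-bound proteins, by -0.92 ± 0.17 (SE, adjusted p = 0.000557). E2F2 passed log2 5 on the 5 doxorubicin arrays of SKBR3 and 2 others, so it was tested through a group outside this comparison. E2F1 read 4.90, 5.27, 5.51, 5.06 and 5.39 in vehicle and 5.21, 5.11, 4.88, 4.55 and 5.15 with rapamycin. Those groups overlapped, and E2F1 was not called at -0.25 (adjusted p = 0.269). TIMELESS, a fork protection subunit, differed by -0.96 ± 0.08 (SE, adjusted p = 6.07e-08), with the smallest adjusted p of any member in this comparison.

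**Figure D1:**
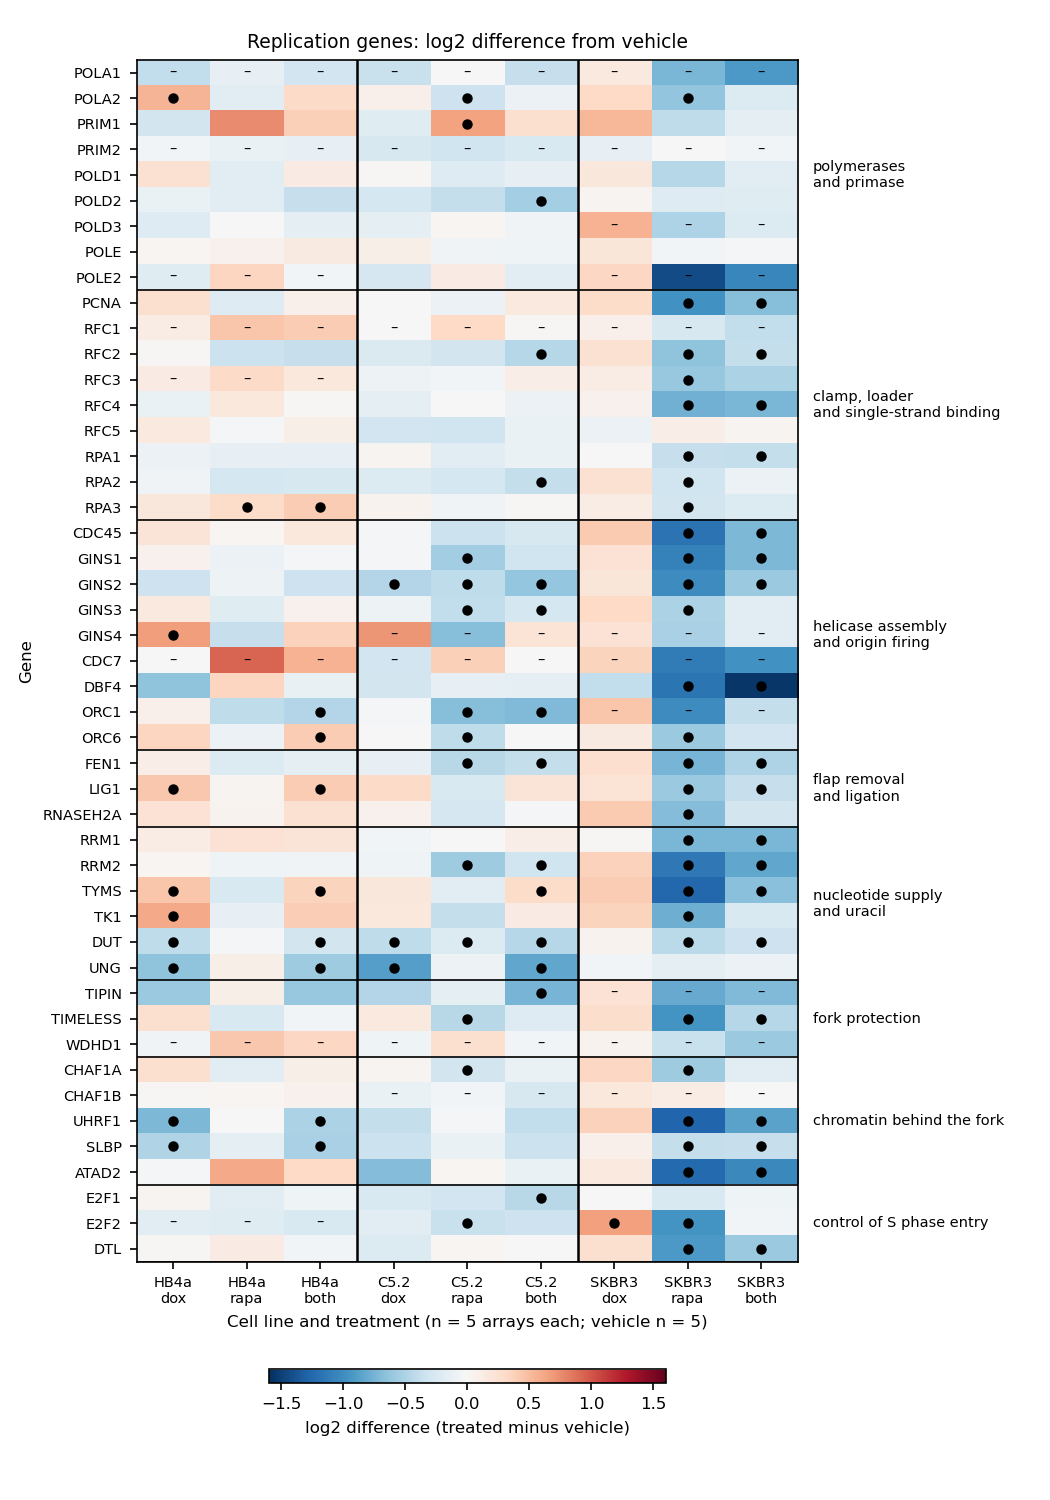
Log2 difference from vehicle of the 47 members (rows, grouped by role) in the 9 comparisons of a treatment with vehicle within a line (columns). Colour runs from lower to higher than vehicle, a dot marks a called member and a dash one not tested; the column of rapamycin in SKBR3 holds 29 dots, all on the lower side, and that of doxorubicin in SKBR3 holds 1.

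In C5.2, rapamycin lowered 12 of 40 tested members and raised 1, where 17.4% of all tested genes were called, 14.6% lower and 2.83% higher. The median over the 47 members was -0.21, against -0.02 over all genes. Among genes tested, it was -0.23 for the members and -0.08 for all. In all 5 experiments 21 members were lower, a count for which no share of all genes is given. Blocking on experiment number gave 23 calls, 22 of them lower, beside 44.2% of all genes. The count was 7 without the vehicle array of experiment 2, and 7 without the rapamycin array of experiment 3.

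With rapamycin in C5.2, 5 of 7 tested helicase and origin firing members fell, and ORC1 fell furthest of the called members. ORC1, the largest subunit of the origin recognition complex, read 6.09, 6.44, 5.67, 6.02 and 5.98 in vehicle and 5.50, 5.66, 4.83, 5.29 and 5.51 with rapamycin. The highest rapamycin array, experiment 2, lay just below the lowest vehicle array, experiment 3, and the difference was -0.68 ± 0.17 (SE, adjusted p = 0.0083). GINS1 read 8.68, 8.48, 8.34, 8.41 and 8.42 in vehicle against 8.01, 7.72, 7.67, 8.03 and 8.10, apart in every array, at -0.56 ± 0.12 (SE, adjusted p = 0.00448). ORC6, GINS2 and GINS3 were also called, at -0.41, -0.41 and -0.39. The ORC6 and GINS2 calls were lost without vehicle array 2 or rapamycin array 3, and that of ORC6 also without rapamycin array 2. RRM2 read 9.23, 9.35, 9.10, 9.29 and 9.34 in vehicle and 8.79, 8.66, 8.52, 8.67 and 8.83 with rapamycin. Its rapamycin arrays all lay below its vehicle arrays, with a difference of -0.57 ± 0.08 (SE, adjusted p = 0.000233). FEN1 read 9.38, 9.35, 9.23, 9.43 and 9.18 and 9.01, 8.76, 8.74, 8.96 and 8.86, apart by -0.45 ± 0.08 (SE, adjusted p = 0.0017). For TIMELESS the values were 6.56, 6.79, 6.50, 6.60 and 6.77 in vehicle and 6.22, 6.40, 5.85, 6.14 and 6.39 with rapamycin, with no overlap and a difference of -0.44 ± 0.10 (SE, adjusted p = 0.00516).

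PRIM1, the catalytic primase subunit, was the member that rose in C5.2 with rapamycin. It read 5.41, 4.94, 5.37, 4.87 and 5.21 in vehicle and 5.92, 5.56, 5.68, 5.83 and 6.07 with the drug. All rapamycin arrays were above all vehicle arrays, at 0.65 ± 0.14 (SE, adjusted p = 0.00419). In HB4a it stood at 0.76 (adjusted p = 0.0685) and was not called, and in SKBR3 its difference had the opposite sign. PRIM1 is represented by 1 probe set. The remaining calls in C5.2 were E2F2, POLA2, CHAF1A and DUT, between -0.35 and -0.21, and each was lost in 6 or more of the 10 fits that left out 1 array. TYMS, at -0.17 (adjusted p = 0.127), PCNA, at -0.10 (adjusted p = 0.671), and UNG, at -0.09 (adjusted p = 0.522), were not called.

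In HB4a, rapamycin raised 1 of 39 tested members and lowered none, where 3.18% of tested genes were called and 2.08% were higher. The member was RPA3, the smallest RPA subunit, at 9.30, 9.09, 9.27, 9.46 and 9.35 in vehicle and 9.52, 9.49, 9.61, 9.78 and 9.50 with rapamycin. Those groups did not overlap, and the difference was 0.29 ± 0.07 (SE, adjusted p = 0.0334). The call was lost without any 1 of 6 arrays, the vehicle arrays of experiments 1, 2, 3 and 6 and the rapamycin arrays of experiments 3 and 4, and 2 members were called without the rapamycin array of experiment 2. At an unadjusted p under 0.05, 8 members differed, 6 of them lower, beside 14.9% of genes. In the blocked fit 8 were called, beside 16.3% of genes, with TYMS, RPA2, RFC2, ORC1, GINS4 and TIMELESS lower and RPA3 and PRIM1 higher. The median over the 47 members was -0.07, against -0.02 over all genes. Among genes tested, it was -0.08 for the members and 0.01 for all.

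Doxorubicin gave a mixed picture in HB4a, where 5 of 39 tested members rose and 4 fell. Of all tested genes, 11.4% were called, 8.66% higher and 2.77% lower. The median was 0.03 over the 47 members and 0.01 over all genes. Among genes tested, it was 0.04 for the members and 0.06 for all, so the members did not stand above the tested genes. In the blocked fit 17 were called, 10 higher and 7 lower, beside 32.7% of genes. The mean of the basal and myoepithelial markers was 6.59 to 6.99 on the doxorubicin arrays of HB4a, above all vehicle arrays (6.24 to 6.56), and that of the mesenchymal markers 5.88 to 6.15 against 6.09 to 6.28. The part of these in the members' results was not tested. Both sides held nucleotide genes: TYMS and TK1 rose, and UNG and DUT, which keep uracil out of DNA, fell.

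UNG, uracil-DNA glycosylase, read 7.61, 7.84, 7.04, 7.30 and 7.54 in HB4a vehicle and 6.89, 7.06, 6.52, 6.77 and 6.84 with doxorubicin in experiments 1, 2, 3, 4 and 6. The vehicle array of experiment 3 lay just below the doxorubicin array of experiment 2, so the groups overlapped by that pair. UNG was lower with doxorubicin in every experiment, and the difference was -0.65 ± 0.14 (SE, adjusted p = 0.00454). DUT differed by -0.41 ± 0.10 (SE, adjusted p = 0.00873). TYMS read 9.45, 9.20, 9.18, 9.34 and 9.24 in vehicle and 9.73, 9.82, 9.49, 9.69 and 9.89 with doxorubicin, all higher than vehicle, at 0.44 ± 0.08 (SE, adjusted p = 0.00139). TK1 read 6.81, 7.16, 6.98, 7.18 and 7.21 and then 7.53, 7.57, 7.68, 7.88 and 7.70. These groups did not overlap, and TK1 rose by 0.60 ± 0.14 (SE, adjusted p = 0.00895). RRM2, at 0.03 (adjusted p = 0.86), was not called.

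Outside nucleotide supply, UHRF1 fell furthest in HB4a with doxorubicin. It read 8.24, 8.16, 7.70, 8.09 and 7.93 in vehicle and 7.37, 7.67, 7.13, 7.03 and 7.32 with the drug, with no overlap and a difference of -0.72 ± 0.13 (SE, adjusted p = 0.000888). SLBP read 8.83, 8.66, 8.53, 8.50 and 8.54 against 8.30, 8.14, 8.11, 7.94 and 8.15. Its doxorubicin arrays were all below vehicle, at -0.48 ± 0.10 (SE, adjusted p = 0.00305). GINS4, the SLD5 subunit of GINS, read 4.60, 4.46, 4.57, 4.61 and 4.67 in vehicle and 5.13, 5.11, 5.30, 5.27 and 5.46 with doxorubicin. It rose in every experiment, by 0.67 ± 0.14 (SE, adjusted p = 0.00289), and its vehicle values were all below log2 5. It passed the filter through the 5 doxorubicin arrays and 2 others, so its test is not independent of the filter, and 4 members rose without it. With no filter GINS4 was called as well (limma's adjusted p = 0.00349). POLA2 rose by 0.54 ± 0.13 (SE, adjusted p = 0.00808). LIG1 rose by 0.43 ± 0.14 (SE, adjusted p = 0.0444), a call lost without any 1 of 8 arrays. PCNA, at 0.26 (adjusted p = 0.308), and E2F1, at 0.04 (adjusted p = 0.915), were not called.

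In C5.2, doxorubicin lowered 3 of 40 tested members and raised none, where 3.26% of tested genes were called and 0.413% were lower. UNG read 7.47, 7.28, 7.28, 7.46 and 7.32 in vehicle and 6.55, 6.59, 6.26, 6.42 and 6.56 with doxorubicin. Every doxorubicin array lay below every vehicle array by a wide margin, and the difference was -0.88 ± 0.09 (SE, adjusted p = 2.95e-06), a 1.85-fold fall. DUT read 10.25, 10.18, 10.15, 10.09 and 10.10 and 9.80, 9.76, 9.69, 9.81 and 9.68. It too was apart in all arrays, at -0.41 ± 0.07 (SE, adjusted p = 0.0015). GINS2 differed by -0.47 ± 0.11 (SE, adjusted p = 0.024), a call lost without any 1 of 5 arrays (vehicle 2 and 4, doxorubicin 3, 4 and 6). Blocking on experiment number gave 11 calls, beside 17.4% of genes, and UHRF1, SLBP, TIPIN, POLD2, E2F1 and RPA2 joined the lower side and LIG1 and TYMS the higher. The median over the 47 members was -0.11, against 0.00 over all genes. Among genes tested, it was -0.11 for the members and 0.02 for all. TYMS read 10.30, 10.17, 10.55, 10.58 and 10.55 with doxorubicin against 10.27, 10.21, 10.24, 10.37 and 10.19 in vehicle, groups that overlapped, and was not called without the block.

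**Figure D2:**
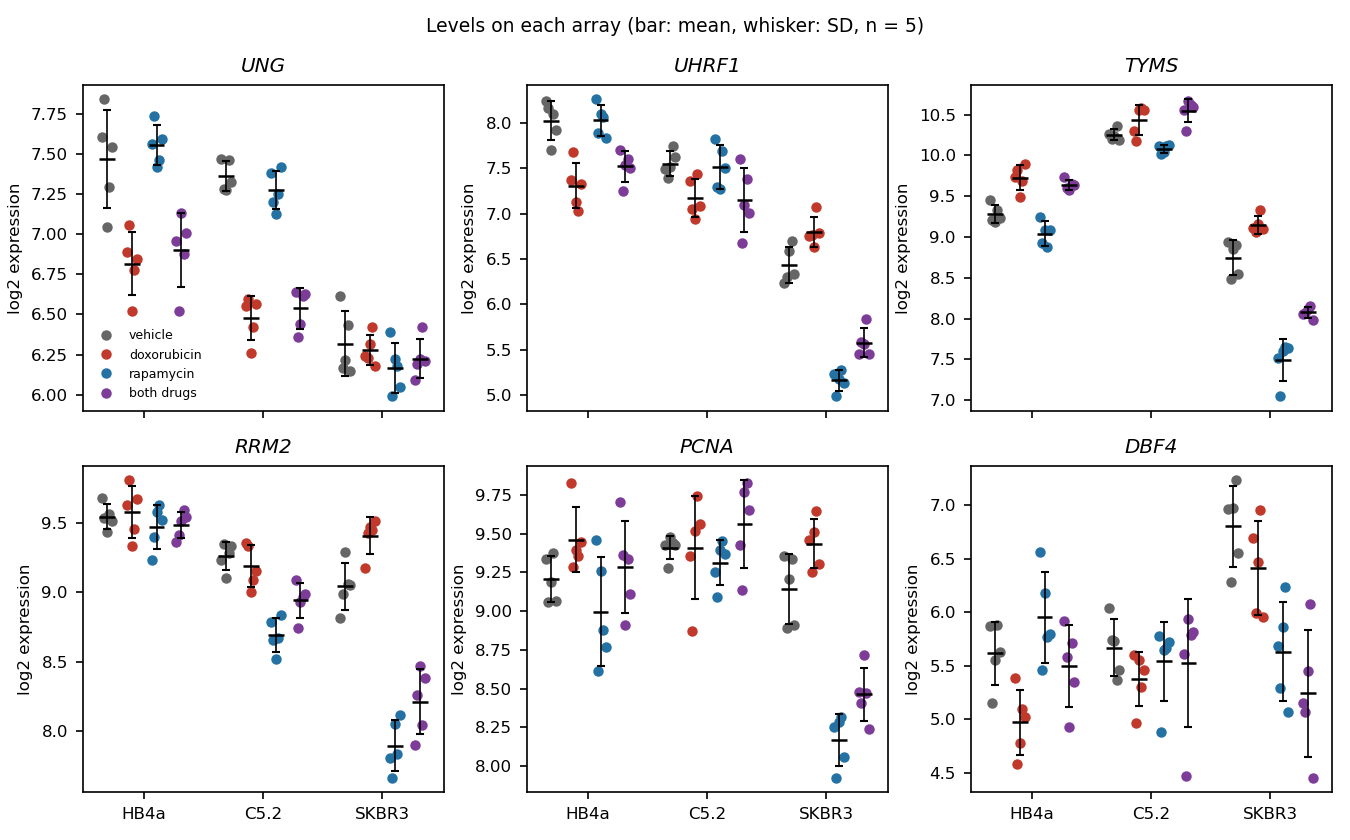
Log2 signal of UNG, UHRF1, TYMS, RRM2, PCNA and DBF4 on each array (points) in the 12 groups of line and treatment, with the group mean (bar) and SD (whisker, n = 5). UNG is lower with doxorubicin, alone or with rapamycin, in HB4a and C5.2, and the other 5 genes are lower with rapamycin, alone or with doxorubicin, in SKBR3.

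In SKBR3, doxorubicin raised 1 of 36 tested members, where 0.837% of tested genes were called and 0.669% were higher. The member was E2F2, an activating E2F factor. It read 4.94, 5.14, 4.96, 4.80 and 4.89 in vehicle and 5.45, 5.86, 5.55, 5.73 and 5.42 with doxorubicin, with no overlap, and rose by 0.65 ± 0.12 (SE, adjusted p = 0.00737). E2F2 passed log2 5 on the 5 doxorubicin arrays and on 2 others, so it was tested only through the group where it is high. With no filter it was called as well (limma's adjusted p = 0.00811). Without the block, most other members leaned the same way but did not pass the test. Differences were above 0 in 42 of 47 members, with a median of 0.23 against 0.00 over all genes. Among genes tested, the median was 0.22 for the members and 0.00 for all. In all 5 experiments 24 members were higher and 1 was lower. The share of all genes is not given for these counts of direction. At an unadjusted p under 0.05, 17 of 36 tested members differed, all higher, beside 7.14% of all tested genes. Experiment numbers were taken to pair these samples, and in the fit blocked on them 14 were called, 13 of them higher, beside 5% of genes. Among these were PRIM1 at 0.53 ± 0.10 (SE, adjusted p = 0.00275), which passed the filter only through doxorubicin arrays, TYMS at 0.40 ± 0.08 (SE, adjusted p = 0.00416) and RRM2 at 0.37 ± 0.07 (SE, adjusted p = 0.00263) by limma with the block, while DBF4 was the lower one, at -0.39 ± 0.11 (SE, adjusted p = 0.0347). UNG read 6.62, 6.16, 6.22, 6.43 and 6.15 in SKBR3 vehicle and 6.24, 6.23, 6.32, 6.42 and 6.18 with doxorubicin. Those values overlapped throughout, and UNG was not called at -0.04 (adjusted p = 1).

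With both drugs in SKBR3, 4 of 6 tested helicase and firing members, 4 of 8 of the clamp, loader and RPA and 4 of 6 of nucleotide supply fell. Of all 36 tested members 19 fell and none rose, where 22% of tested genes were called and 13.6% were lower. The median over the 47 members was -0.38, against 0.03 over all genes. Among genes tested, it was -0.36 for the members and -0.06 for all. DBF4 read 5.16, 5.07, 5.45, 6.08 and 4.46 with both drugs against 6.97, 6.28, 6.98, 7.23 and 6.55 in vehicle. The groups did not overlap, and the difference was -1.56 ± 0.27 (SE, adjusted p = 0.000371), larger than that of any other called member with both drugs against vehicle in the 3 lines. UHRF1 read 5.45, 5.59, 5.56, 5.84 and 5.45, all below vehicle, at -0.85 ± 0.11 (SE, adjusted p = 1.57e-05). RRM2 read 7.90, 8.26, 8.47, 8.05 and 8.38 with both drugs, apart from vehicle by -0.83 ± 0.11 (SE, adjusted p = 3.07e-05). TYMS, at 8.05, 8.07, 8.11, 8.16 and 7.98, differed by -0.67 ± 0.11 (SE, adjusted p = 0.000217), and PCNA, at 8.48, 8.41, 8.72, 8.47 and 8.24, by -0.68 ± 0.11 (SE, adjusted p = 0.000219). All of these lay below their vehicle arrays. RFC4 differed by -0.73 ± 0.14 (SE, adjusted p = 0.000927), CDC45 by -0.72 ± 0.13 (SE, adjusted p = 0.000531) and GINS1 by -0.72 ± 0.12 (SE, adjusted p = 0.000372), also without overlap. None of the 5 tested polymerase and primase members was called. DTL lost its call without any 1 of 4 arrays, and RRM1 and RFC2 without the vehicle array of experiment 1.

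In C5.2, both drugs lowered 12 of 40 tested members and raised 1, where 21% of tested genes were called, 14.6% lower and 6.42% higher. UNG read 6.64, 6.36, 6.44, 6.62 and 6.63 with both drugs, all below vehicle, at -0.83 ± 0.09 (SE, adjusted p = 2.78e-06). ORC1 read 5.41, 5.59, 5.03, 5.32 and 5.36, apart from vehicle by -0.70 ± 0.17 (SE, adjusted p = 0.00564). GINS2 read 7.51, 7.81, 7.42, 7.51 and 7.42 in vehicle and 7.0, 7.02, 6.76, 6.88 and 6.94 with both drugs, with no overlap, at -0.61 ± 0.11 (SE, adjusted p = 0.000784). DUT read 9.54, 9.50, 9.81, 9.88 and 9.76 and differed by -0.46 ± 0.07 (SE, adjusted p = 0.000117), likewise without overlap. RPA2, the middle RPA subunit, read 7.35, 7.42, 7.36, 7.36 and 7.21 in vehicle and 7.12, 7.07, 6.83, 6.79 and 6.97, and differed by -0.39 ± 0.10 (SE, adjusted p = 0.00955). RFC2 read 7.47, 7.30, 7.17, 7.45 and 7.26 in vehicle and 7.0, 7.03, 6.59, 6.79 and 6.96 with both drugs. Its groups were apart, at -0.45 ± 0.14 (SE, adjusted p = 0.026), and the call was lost without vehicle array 1 or 4 or both-drug array 3 or 4. TIPIN, the partner of TIMELESS, was lower at -0.74 ± 0.16 (SE, adjusted p = 0.00262) and POLD2 at -0.55 ± 0.14 (SE, adjusted p = 0.00908), both with overlapping groups. TYMS was the member that rose, by 0.29 ± 0.08 (SE, adjusted p = 0.0105). E2F1 read 5.09, 5.48, 5.32, 5.02 and 5.26 in vehicle and 4.74, 5.07, 4.77, 4.57 and 4.83 with both drugs, overlapping, at -0.44 ± 0.13 (SE, adjusted p = 0.0167). Its call was lost without vehicle array 2 or both-drug array 4, and it was tested only through the 5 vehicle arrays, with 3 other arrays above log2 5. A second RRM2 probe set read 0.11 higher than vehicle where the one used differed by -0.32 ± 0.08 (SE, adjusted p = 0.0106).

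In HB4a, where the luminal marker mean was 7.42 to 7.70 with both drugs against 7.72 to 7.88 in vehicle, its part not tested, both drugs raised 4 of 39 tested members and lowered 5, where 17.4% of tested genes were called, 10.9% higher and 6.49% lower. RPA3 read 9.68, 9.66, 9.63, 9.84 and 9.67, all above vehicle, at 0.40 ± 0.07 (SE, adjusted p = 0.000605). TYMS read 9.74, 9.60, 9.57, 9.65 and 9.64, also all above vehicle, at 0.36 ± 0.08 (SE, adjusted p = 0.00422). On the lower side SLBP read 8.35, 8.08, 7.95, 8.01 and 8.08 and UHRF1 7.70, 7.25, 7.54, 7.61 and 7.51. Both lay below all their vehicle arrays, SLBP at -0.51 ± 0.10 (SE, adjusted p = 0.000994) and UHRF1 at -0.50 ± 0.13 (SE, adjusted p = 0.0087). For UHRF1 the margin was narrow, as its highest both-drug array and its lowest vehicle array each read 7.70 after rounding. UNG read 6.96, 6.52, 7.13, 6.88 and 7.01, overlapping with vehicle, at -0.57 ± 0.14 (SE, adjusted p = 0.00735). ORC6 and LIG1 rose, and ORC1 and DUT fell, by 0.29 to 0.47 in size. Leaving out 1 array lost the calls of ORC1 in 8, LIG1 in 7, DUT in 6 and ORC6 in 4 of the 10 fits, and without the vehicle array of experiment 6 the count of members called was 5.

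Setting both drugs against each single drug shows what the second drug added. These comparisons share the arrays with both drugs, and those above share the vehicle arrays, so values are given side by side. Rapamycin added to doxorubicin lowered 30 of 36 tested members in SKBR3 and raised none, where 22% of tested genes were called and 14.6% were lower. Among called members the largest differences were UHRF1 at -1.22 ± 0.11 (SE, adjusted p = 4.30e-07), RRM2 at -1.20 ± 0.11 (SE, adjusted p = 8.36e-07) and ATAD2 at -1.18 ± 0.28 (SE, adjusted p = 0.00494). PRIM1, which was not called for rapamycin alone, differed by -0.69 ± 0.15 (SE, adjusted p = 0.00321) here. PRIM1 and E2F2 were tested only through the doxorubicin arrays, and 28 members fell without them. In C5.2 the same step lowered 3 of 40 tested members and raised 1, where 13.5% of genes were called, 11.8% lower and 1.73% higher. The share of members called was below that of genes. Blocking gave 10 calls, beside 38% of genes. The count was 1 without doxorubicin array 6 or both-drug array 3 or 4, and 2 without both-drug array 6. ORC1 differed by -0.68 ± 0.17 (SE, adjusted p = 0.0113) and PRIM1 rose by 0.45 ± 0.14 (SE, adjusted p = 0.0401). TIMELESS and FEN1 were lower, at -0.36 and -0.26, and leaving out 1 array lost the calls of PRIM1 in 7, TIMELESS in 3 and FEN1 in 9 of 10 fits. In HB4a limma called 0 members, where 2.58% of genes were called, and 1 member without both-drug array 3 or 6. The lowest adjusted p was 0.0705, and 8 members differed at an unadjusted p under 0.05, beside 15% of genes.

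Doxorubicin added to rapamycin raised 3 of 36 tested members in SKBR3 and lowered none, where 0.552% of tested genes were called, all higher. E2F2 read 4.79, 5.04, 4.85, 4.87 and 5.00 with both drugs and 4.26, 4.05, 3.97, 3.63 and 4.07 with rapamycin alone. These groups did not overlap, at 0.91 ± 0.12 (SE, adjusted p = 0.000287). E2F2 passed log2 5 on the 5 arrays with doxorubicin alone and 2 others, so it was tested through a group outside this comparison. With no filter the same 3 members were called. TYMS was higher by 0.58 ± 0.11 (SE, adjusted p = 0.00919) and TIMELESS by 0.50 ± 0.08 (SE, adjusted p = 0.00139), without overlap. With both drugs the level of E2F2 was that of vehicle within its spread, 4.91 ± 0.10 against 4.95 ± 0.12 (SD, n = 5), while TYMS stood at 8.08 ± 0.07 against 8.75 ± 0.21. Differences were above 0 in 38 of 47 members and 25 were higher in all 5 experiments, counts for which no share of all genes is given. At an unadjusted p under 0.05, 19 of 36 tested members were higher, beside 7.13% of genes. In the blocked fit 17 were called, 16 of them higher, beside 6.64% of genes.

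In C5.2, doxorubicin added to rapamycin raised 4 members and lowered 3 of 40, where 6.39% of genes were called, 4.82% higher and 1.57% lower. Blocking gave 16 calls, beside 22.2% of genes. The count was 3 without rapamycin array 1, 3 or 6 or both-drug array 1, and 4 without rapamycin array 4. UNG, at 7.38, 7.20, 7.13, 7.25 and 7.42 with rapamycin and 6.64, 6.36, 6.44, 6.62 and 6.63 with both drugs, differed by -0.74 ± 0.09 (SE, adjusted p = 1.69e-05). TYMS rose by 0.47 ± 0.08 (SE, adjusted p = 0.000549) and LIG1 by 0.45 ± 0.11 (SE, adjusted p = 0.0181), both apart in all arrays, and the LIG1 call was lost without rapamycin array 3 or both-drug array 1. TK1 and ORC6 rose by 0.51 and 0.42, with calls lost in 7 and 9 of the 10 fits that left out 1 array. In HB4a, 5 of 39 rose and 4 fell, where 8.84% of genes were called, 5.66% higher and 3.18% lower. The count was 5 without rapamycin array 1 or both-drug array 6. GINS4 rose by 0.74 ± 0.14 (SE, adjusted p = 0.00137), TYMS by 0.60 ± 0.08 (SE, adjusted p = 7.11e-05), and UNG was lower at -0.65 ± 0.14 (SE, adjusted p = 0.00475), each without overlap. GINS4 passed log2 5 on the 5 arrays with doxorubicin alone and 2 others, so it was tested through a group outside this comparison. The effect of both drugs did not depart from the sum of the single effects for any member in any line by limma's adjusted p, and 0% of all genes did. At an unadjusted p under 0.05 the departures were 0 members in HB4a, 3 of 40 in C5.2 and 0 in SKBR3, beside 0.308%, 1.22% and 1.02% of tested genes. The 3 in C5.2 were all above the sum. The median departure there was 0.15 over the tested members and -0.02 over all tested genes.

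**Figure D3:**
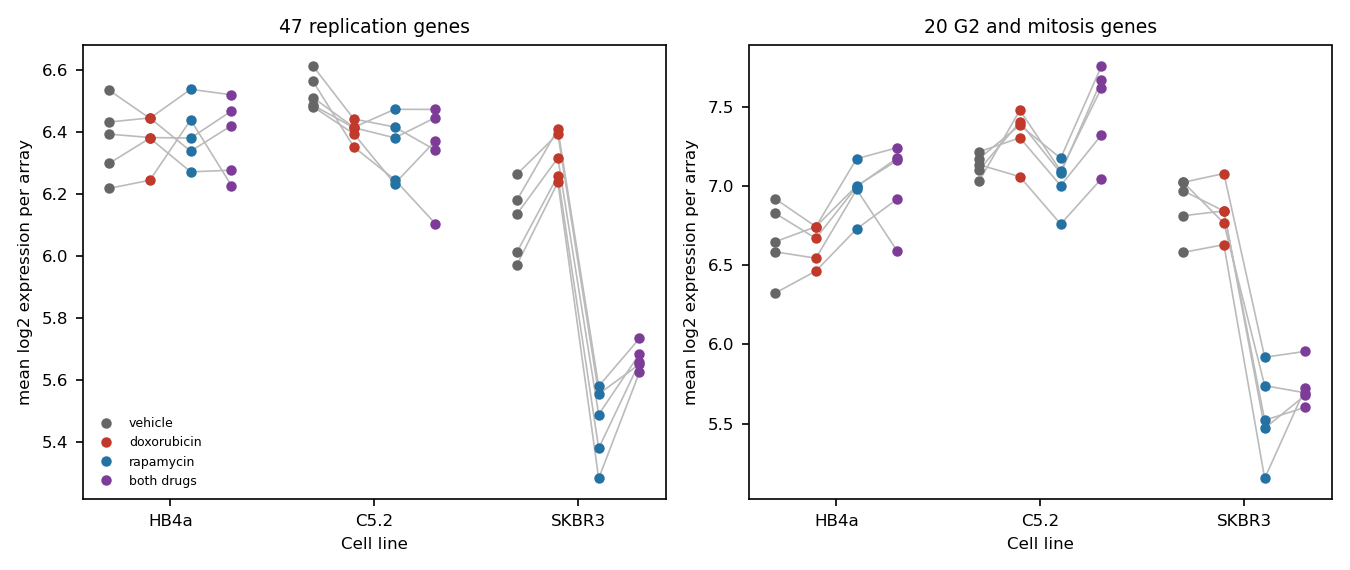
Mean log2 signal per array of the 47 members and of 20 genes of G2 and mitosis, by line and treatment; lines join arrays of the same experiment number. In SKBR3 the member mean lies between 5.97 and 6.26 in vehicle, 6.24 and 6.41 with doxorubicin, 5.28 and 5.58 with rapamycin and 5.62 and 5.73 with both drugs, with rapamycin lowest in every experiment.

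The mean of all 47 members on each array put these changes on 1 scale. In SKBR3 it was 6.26, 5.97, 6.13, 6.18 and 6.01 in vehicle and 6.39, 6.24, 6.31, 6.41 and 6.26 with doxorubicin in experiments 1, 2, 3, 4 and 6. With rapamycin it was 5.55, 5.28, 5.49, 5.58 and 5.38, and with both drugs 5.65, 5.62, 5.68, 5.73 and 5.66. In SKBR3 both rapamycin groups lay below all other arrays of the line, and the highest vehicle array, that of experiment 1, lay above the doxorubicin arrays of experiments 2 and 6. In C5.2 the mean ran from 6.48 to 6.61 in vehicle, 6.35 to 6.44 with doxorubicin, 6.23 to 6.47 with rapamycin and 6.10 to 6.47 with both drugs, so every treated array lay below every vehicle array. The margin was narrow, 6.48 in the lowest vehicle array against 6.47 in the highest rapamycin and both-drug arrays. Median differences of all tested genes there were 0.02 with doxorubicin, -0.08 with rapamycin and -0.06 with both drugs. In HB4a all 4 groups overlapped, between 6.22 and 6.54.

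Genes near these in function were counted from lists of genes that are not members. Other replication and nucleotide genes (MCM helicase, licensing, histone chaperones and nucleotide enzymes, 38 with a value) showed 16 lower and 1 higher of 27 tested in SKBR3 with rapamycin, 14 lower and 2 higher with both drugs, and 1 higher with doxorubicin. In C5.2, of 28 tested, 5 fell with rapamycin, 9 with both drugs and 1 with doxorubicin. In HB4a, of 28 tested, 3 fell and 1 rose with doxorubicin, none was called with rapamycin, and 4 fell and 1 rose with both drugs. MCM6, a helicase subunit, was lower with doxorubicin in HB4a at -1.20 ± 0.16 (SE, adjusted p = 4.02e-05) and in C5.2 at -0.67 ± 0.14 (SE, adjusted p = 0.0088), and the median over the list was 0.01 and -0.05 there. Of 12 genes of E2F and G1/S control, 7 were tested in SKBR3 and 4 fell with rapamycin and 3 with both drugs, while in HB4a 2 of 7 rose with doxorubicin and 2 with both. In C5.2, of 8 tested, 1 rose with doxorubicin, 2 fell with rapamycin, and 2 rose and 2 fell with both drugs.

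The genes of G2 and mitosis fell with rapamycin in SKBR3 as well. There all 17 tested fell with rapamycin, with a median of -1.37 over the 20 genes, 16 of 17 fell with both drugs, and none was called with doxorubicin, where the median was -0.02. In C5.2, 7 of 17 rose with both drugs and none fell, 3 rose with doxorubicin, and 2 fell with rapamycin. In HB4a, 5 of 18 rose with both drugs, 1 rose and 1 fell with doxorubicin, and none was called with rapamycin. Their part in the members' results was not tested.

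Between SKBR3 and each other line in vehicle, the share of members called was near that of all tested genes, with most called members lower. SKBR3 stood below HB4a in 28 of 42 tested members and above it in 7, where 77.3% of tested genes were called, 39.7% lower and 37.6% higher. Of the 28 lower, 5 (GINS4, POLD3, ORC1, CHAF1B and TIPIN) were tested only through HB4a, where they are high. Of the 7 higher, 1 (RFC3) was tested only through SKBR3. The median over the 47 members was -0.45, against -0.14 over all genes. Among genes tested, it was -0.48 for the members and -0.02 for all. GINS2 read 7.52, 7.61, 7.36, 7.69 and 7.71 in HB4a and 5.65, 5.56, 5.65, 5.41 and 5.41 in SKBR3, apart by -2.04 ± 0.14 (SE, adjusted p = 1.68e-16). ORC1 was lower at -1.76 ± 0.15 (SE, adjusted p = 3.36e-13), POLD1 at -1.59 ± 0.17 (SE, adjusted p = 7.98e-11), SLBP at -1.51 ± 0.10 (SE, adjusted p = 3.83e-17) and UNG at -1.15 ± 0.12 (SE, adjusted p = 1.14e-10), all without overlap. ATAD2 went the other way. It read 5.50, 3.99, 4.52, 4.50 and 4.85 in HB4a and 8.66, 7.37, 8.29, 8.56 and 7.74 in SKBR3, higher by 3.45 ± 0.37 (SE, adjusted p = 1.42e-10), and RFC3 was higher by 2.33 ± 0.29 (SE, adjusted p = 5.02e-09). DBF4, TK1 and POLD2 were also above HB4a, by 1.19, 0.93 and 0.78. Against C5.2, SKBR3 was lower in 27 of 40 members and higher in 5, where 78.8% of genes were called, 42.6% lower and 36.2% higher. Of the 27 lower, 3 (POLD3, ORC1 and TIPIN) were tested only through C5.2, where they are high, and 24 were lower without them.

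C5.2 differed from its parent HB4a in 14 of 42 tested members, 8 higher and 6 lower, where 49.2% of tested genes were called, 29.3% higher and 19.9% lower. That share of members was below the share of genes. Of the 14, GINS4, RFC3, E2F2 and CHAF1B were tested only through the line where they are high, and CHAF1B was not called with no filter. TYMS read 10.27, 10.21, 10.24, 10.37 and 10.19 in C5.2 and 9.45, 9.20, 9.18, 9.34 and 9.24 in HB4a vehicle, well apart, at 0.97 ± 0.08 (SE, adjusted p = 3.33e-13). RFC5 was higher by 0.75 ± 0.19 (SE, adjusted p = 0.00103), E2F2 by 0.69 ± 0.14 (SE, adjusted p = 0.000108) and FEN1 by 0.46 ± 0.09 (SE, adjusted p = 3.83e-05). GINS4 was lower at -0.88 ± 0.16 (SE, adjusted p = 2.26e-05), POLD2 at -0.66 ± 0.14 (SE, adjusted p = 0.00015) and RRM2 at -0.29 ± 0.09 (SE, adjusted p = 0.00583). ATAD2, DTL and RFC3 were higher with overlapping groups, and the RFC3 call was lost without C5.2 vehicle array 1.

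**Figure D4:**
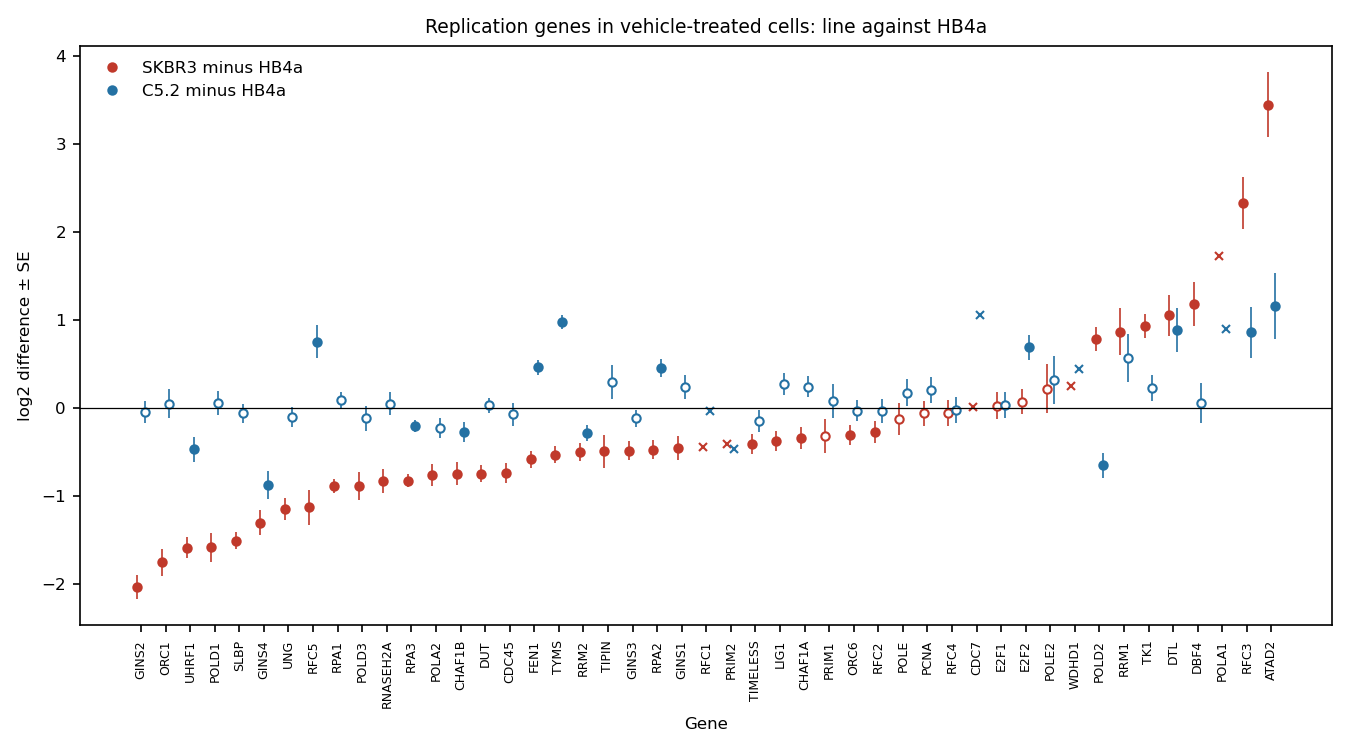
Log2 difference from HB4a in vehicle of each member, for SKBR3 and for C5.2, with its SE (bar); filled points are called, open points are not and crosses were not tested. Genes run along the horizontal axis in the order of the SKBR3 difference. Most SKBR3 points lie below 0, down to -2.04 for GINS2, and ATAD2 is the highest at 3.45.

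The responses of SKBR3 differed from those of both other lines when the difference itself was tested. For doxorubicin, SKBR3 was above HB4a in 6 of 42 members and below in none, where 3.87% of genes were called and 1.1% were higher. Blocking on experiment number within each line gave 10 calls, beside 15.9% of genes. The count was 3 without HB4a vehicle array 1 or 6, HB4a doxorubicin array 3 or 6, SKBR3 vehicle array 2 or 6 or SKBR3 doxorubicin array 4. UHRF1, which fell in HB4a and stood at 0.37 (adjusted p = 0.167) in SKBR3, had a response difference of 1.09 ± 0.17 (SE, adjusted p = 7.69e-05). The differences were 0.84 ± 0.20 (SE, adjusted p = 0.00908) for E2F2, tested only through the SKBR3 doxorubicin arrays and 4 others, and 0.57 ± 0.13 (SE, adjusted p = 0.00824) for SLBP. UNG differed by 0.61 ± 0.17 (SE, adjusted p = 0.0372), a call lost in 11 of 20 fits that left out 1 array, DUT by 0.47 ± 0.14 (SE, adjusted p = 0.0413), lost in 12, and POLD3, an accessory subunit of polymerase delta, by 0.76 ± 0.23 (SE, adjusted p = 0.0467), lost in 14. POLD3 read 4.90, 4.13, 4.40, 4.46 and 3.97 in SKBR3 vehicle and 5.29, 4.94, 4.73, 4.88 and 4.80 with doxorubicin, and 5.63, 5.07, 5.09, 5.26 and 5.23 and 5.12, 5.26, 5.07, 4.70 and 5.10 in HB4a. Its SKBR3 values were thus mostly below log2 5. Against C5.2, SKBR3 was above in 5 of 40 members, where 1.47% of genes were called and 0.519% were higher. Blocking gave 17 calls, beside 8.23% of genes. The count was 2 without C5.2 doxorubicin array 3 or 6 or SKBR3 vehicle array 6, 3 without SKBR3 doxorubicin array 3, and 10 without SKBR3 vehicle array 1. UNG led at 0.85 ± 0.13 (SE, adjusted p = 0.000101), followed by E2F2 at 0.82 ± 0.16 (SE, adjusted p = 0.0024), UHRF1 at 0.75 ± 0.19 (SE, adjusted p = 0.0267) and GINS2 at 0.66 ± 0.17 (SE, adjusted p = 0.0277). DUT followed at 0.46, and leaving out 1 array lost the calls of UHRF1 in 6, GINS2 in 8 and DUT in 5 of 20 fits.

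For rapamycin, SKBR3 lay below HB4a in 20 of 42 members and above in none, where 5.03% of genes were called and 3.47% were lower. POLE2, tested in this fit of 40 arrays, read 5.34, 4.02, 4.47, 4.43 and 4.52 in HB4a vehicle and 6.19, 4.39, 4.88, 4.57 and 4.46 with rapamycin. The HB4a values overlapped, and the response difference was -1.78 ± 0.40 (SE, adjusted p = 0.00365). POLE2 values were mostly below log2 5 in these groups and in those of SKBR3. Its 6.19 came from HB4a experiment 1, among the arrays that stood apart, and the next rapamycin value was 4.88. The call was lost in 0 of the 20 fits that left out 1 array. DBF4 differed by -1.51 ± 0.36 (SE, adjusted p = 0.00618), UHRF1 by -1.27 ± 0.17 (SE, adjusted p = 1.53e-06), CDC45 by -1.21 ± 0.16 (SE, adjusted p = 1.80e-06), RRM2 by -1.08 ± 0.15 (SE, adjusted p = 2.00e-06) and TYMS by -1.01 ± 0.14 (SE, adjusted p = 2.14e-06). ATAD2 differed by -1.86 ± 0.53 (SE, adjusted p = 0.0293), a call lost in 9 of 20 fits that left out 1 array. Against C5.2, 12 of 40 members were lower, where 6.23% of genes were called and 2.47% were lower. Blocking gave 27 calls, beside 32.4% of genes. The largest were POLE2 at -1.56 ± 0.25 (SE, adjusted p = 0.000121), UHRF1 at -1.23 ± 0.19 (SE, adjusted p = 5.87e-05), TYMS at -1.08 ± 0.13 (SE, adjusted p = 2.47e-06) and PRIM1 at -1.05 ± 0.21 (SE, adjusted p = 0.00117). PCNA differed by -0.88 ± 0.18 (SE, adjusted p = 0.002).

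For both drugs, SKBR3 lay below HB4a in 11 of 42 members, where 9.82% of genes were called and 6.44% were lower. Quantile normalization moved the median of all tested genes in this comparison from -0.10 to 0.02 and that of the tested members from -0.38 to -0.26. DBF4 differed by -1.44 ± 0.36 (SE, adjusted p = 0.00593), TYMS by -1.03 ± 0.14 (SE, adjusted p = 1.57e-06), CDC45 by -0.88 ± 0.16 (SE, adjusted p = 0.00021) and LIG1 by -0.78 ± 0.17 (SE, adjusted p = 0.00127). LIG1 read 6.12, 6.37, 5.96, 6.32 and 6.21 in HB4a vehicle and 6.21, 6.55, 6.80, 6.73 and 6.75 with both drugs, and 5.61, 5.94, 5.93, 5.79 and 5.82 and 5.56, 5.41, 5.41, 5.43 and 5.47 in SKBR3, so it was higher in 1 line and lower in the other. Against C5.2, 7 of 40 members were lower and 1, UNG, was higher, where 12.3% of genes were called, 4.51% lower and 7.81% higher. Without C5.2 both-drug array 2 the count was 16. They included DBF4 at -1.42 ± 0.37 (SE, adjusted p = 0.00872), TYMS at -0.96 ± 0.13 (SE, adjusted p = 3.53e-06), POLE2 at -0.87 ± 0.25 (SE, adjusted p = 0.0173) and PCNA at -0.83 ± 0.18 (SE, adjusted p = 0.00159), and UNG stood at 0.73 ± 0.13 (SE, adjusted p = 0.00016).

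Without the block, no member's response was called as different between C5.2 and HB4a. Limma called 0 of 42 members for doxorubicin, 0 for rapamycin and 0 for both drugs, where 0.101%, 0% and 0.373% of genes were called. Blocking on experiment number within line gave 2 for doxorubicin and 4 for rapamycin, all lower in C5.2, beside 1.97% and 2.53% of genes, and 1 was called for both drugs without HB4a vehicle array 4 or C5.2 vehicle array 1. At an unadjusted p under 0.05 the counts were 4, 4 and 7, all lower in C5.2, beside 3.42%, 5.11% and 9.61% of genes. The lowest adjusted p was 0.738 for doxorubicin, 0.24 for rapamycin and 0.0545 for both drugs, the last for RPA3.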

How the data were processed

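The authors deposited log2 values per probe set, made by RMA according to the submitters' processing notes. The RMA version, and whether the arrays were run through it together, are not given in the sources used here, and base 2 was read from the range of -0.60 to 13.08. The vehicle titles carry a code that the treatment text gives to the drug pair, so groups and doses were read from the source names. Of 54675 probe sets, 41091 carried 1 gene symbol in the platform annotation, 1801 several and 11777 none, and 6 control probe sets were left out. Arrays give no counts, so their number limits the precision.

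All tests were 2-sided and used limma 3.58.1 (R 4.3.3), with an empirical Bayes step that allows a trend, and Benjamini-Hochberg adjustment over all genes of the fit and a threshold of 0.05. A gene entered where it passed log2 5 on at least 5 arrays of the fit, which left 6167 genes in HB4a, 6292 in C5.2 and 5977 in SKBR3. Fits held the 20 arrays of a line or the 40 arrays of 2 lines. Tables were read with the R package data.table (version 1.17.8) and, in Python 3.11.15, with numpy 2.4.6 and pandas 2.3.3, and plots came from matplotlib 3.10.9. The fit was tested on simulated data.

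The members and the lists of other genes were chosen with earlier results of these data known. Values on every array are given for members called against vehicle with groups that do not overlap (at most 6 per comparison, by size), for the largest called response differences (at most 4 per comparison), and for PCNA, RRM2, UNG, TYMS and E2F1. Some of these are given as differences only.

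Experiment numbers come from the titles. Same-numbered samples deviated together, with every correlation of deviations above 0.1, in all comparisons within SKBR3 (lowest 0.238), in C5.2 apart from both drugs against vehicle (lowest -0.1), in HB4a for doxorubicin and rapamycin against vehicle (lowest 0.428 and 0.461), and between C5.2 and HB4a in vehicle (lowest 0.163). There the numbers were taken to pair the samples. The HB4a comparisons with both drugs (lowest -0.569) and SKBR3 against HB4a and C5.2 in vehicle (lowest -0.116 and -0.063) did not meet this rule.

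The settings varied were the filter (none, or log2 7), the probe set of a gene (the mean of all in place of the brightest), the normalization (quantile), the experiment number as a block, leaving out the arrays that stood apart in earlier results, and leaving out each array in turn.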

Additional observations from a re-analysis of the deposited data

Results flagged for a closer look

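Among 128 sets of a named member and a group of 5 arrays, 7 held 1 array whose gap to the nearest other array was above 0.71 of the group's range. Chance gives this in about 1 in 20 groups. The array was low for PCNA in C5.2 vehicle (experiment 2, 9.28), RRM2 in SKBR3 with doxorubicin (experiment 1, 9.18), TYMS in C5.2 with both drugs (experiment 2, 10.30) and TYMS in SKBR3 with rapamycin (experiment 2, 7.05). It was high for GINS2 in C5.2 vehicle (experiment 2, 7.81), GINS1 in SKBR3 with doxorubicin (experiment 1, 8.26) and RPA3 in HB4a with both drugs (experiment 4, 9.84). C5.2 experiment 2 and SKBR3 experiment 1 are among the arrays that stood apart in earlier results.

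The response of a member differed between SKBR3 and another line, by the test of the difference itself, in 62 cases. For doxorubicin, SKBR3 minus HB4a was 1.09 for UHRF1, 0.84 for E2F2, 0.76 for POLD3, 0.61 for UNG, 0.57 for SLBP and 0.47 for DUT. The same for SKBR3 minus C5.2 was 0.85 for UNG, 0.82 for E2F2, 0.75 for UHRF1, 0.66 for GINS2 and 0.46 for DUT. For rapamycin, SKBR3 minus HB4a was -1.86 for ATAD2, -1.78 for POLE2, -1.51 for DBF4, -1.27 for UHRF1, -1.21 for CDC45, -1.17 for PRIM1, -1.08 for RRM2, -1.01 for TYMS, -1.0 for GINS1, -0.94 for RFC4, -0.92 for GINS2, -0.90 for TIPIN, -0.77 for PCNA, -0.76 for E2F2, -0.75 for RNASEH2A, -0.71 for TIMELESS, -0.64 for TK1, -0.64 for LIG1, -0.59 for RPA3 and -0.53 for FEN1. Against C5.2 the rapamycin responses differed by -1.56 for POLE2, -1.23 for UHRF1, -1.08 for TYMS, -1.05 for PRIM1, -0.95 for DTL, -0.88 for PCNA, -0.83 for CDC45, -0.77 for RFC4, -0.60 for E2F2, -0.59 for GINS2, -0.58 for RRM2 and -0.52 for TIMELESS. For both drugs, SKBR3 minus HB4a was -1.44 for DBF4, -1.03 for TYMS, -0.88 for CDC45, -0.78 for LIG1, -0.77 for RRM2, -0.76 for PCNA, -0.75 for RFC4, -0.71 for ORC6, -0.68 for GINS1, -0.64 for TK1 and -0.62 for RPA3. Against C5.2 it was -1.42 for DBF4, -0.96 for TYMS, -0.87 for POLE2, -0.83 for PCNA, 0.73 for UNG, -0.64 for RFC4, -0.57 for LIG1 and -0.51 for RRM2. All are differences of log2 responses.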

How the results depend on the processing

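No called difference of a named member changed sign under any alternative run. Leaving aside the fits without 1 array each, 603 of 637 values for named members kept their direction and call, 22 lost the call and 12 gained it. The counts below are of members called.

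With the experiment number as a block, 17 were called for doxorubicin and 8 for rapamycin in HB4a, where the numbers pair the samples. In HB4a 18 were called for both drugs, 6 for both against doxorubicin and 15 for both against rapamycin, where samples share only a number. Of all 6167 tested genes, 2307, 973 and 1754 were called in these blocked comparisons. The block gave 11 for doxorubicin, 23 for rapamycin, 10 for both against doxorubicin and 16 for both against rapamycin in C5.2, and 14 for doxorubicin and 17 for both against rapamycin in SKBR3. For the responses to doxorubicin, rapamycin and both drugs it gave 2, 4 and 6 for C5.2 minus HB4a and 17, 27 and 23 for SKBR3 minus C5.2. For SKBR3 minus HB4a it gave 10 for doxorubicin and 23 for both drugs. The block moved no other of these counts by over 1.5 times. For the both-drug responses the block called 696 of 6962 genes for C5.2 minus HB4a. It called 2797 of 7324 for SKBR3 minus C5.2 and 2317 of 7270 for SKBR3 minus HB4a.

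A filter at log2 7, which tests fewer genes, gave 6 for rapamycin in C5.2, 2 and 4 for both drugs against doxorubicin and rapamycin there, 0 for doxorubicin and 16 for rapamycin in SKBR3, and 16 and 1 for both against doxorubicin and rapamycin there. Of 2322 genes tested in C5.2, 565, 417 and 192 were called with this filter. In SKBR3 this filter called 16, 610, 657 and 13 of 2213 genes. It gave 8 for C5.2 against HB4a, 21 for SKBR3 against HB4a and 18 for SKBR3 against C5.2 in vehicle, 1 for the response to both drugs of C5.2 minus HB4a, and 7 and 5 for the responses to rapamycin and both drugs of SKBR3 minus C5.2. All genes called were 1392 of 2708, 2356 of 2911 and 2417 of 2928 between lines in vehicle. For these responses they were 18 of 2708, and 253 and 403 of 2928. No filter gave 0 for rapamycin in HB4a, 1 and 4 for both against doxorubicin and rapamycin in C5.2, and 3 for the doxorubicin response of SKBR3 minus HB4a. Of 19775 genes, 192, 611, 454 and 378 were called in these comparisons. The mean of all probe sets gave 2 for rapamycin in HB4a, 1 for doxorubicin, 8 for rapamycin and 2 for both against doxorubicin in C5.2, 0 for both against rapamycin in SKBR3, 1 for the response to both drugs of C5.2 minus HB4a and 3 for the doxorubicin response of SKBR3 minus C5.2. All genes called were 139 of 3598 in HB4a, 162, 792 and 581 of 3641 in C5.2 and 28 of 3412 in SKBR3. For the responses they were 23 of 4110 and 93 of 4325. Quantile normalization gave 1 for both against doxorubicin in HB4a and in C5.2 and 2 for doxorubicin in SKBR3. All genes called there were 184 of 6205, 498 of 6122 and 51 of 6041. Without the arrays that stood apart in earlier results, the counts were 0 for rapamycin and 1 for both against doxorubicin in HB4a, 6 for doxorubicin in C5.2 and 11 for the doxorubicin response of SKBR3 minus C5.2. All genes called were 171 and 246 of 5944 in HB4a, 561 of 6209 in C5.2 and 299 of 7214 for that response. With all arrays, 205 of 6292 genes were called for doxorubicin in C5.2 and 108 of 7324 for that response. The cause was not tested.

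Leaving out 1 array at a time, counts ran in HB4a from 0 to 2 for rapamycin, 5 to 10 for both drugs, 0 to 1 for both against doxorubicin and 5 to 10 for both against rapamycin, and in C5.2 from 7 to 17 for rapamycin, 1 to 4 for both against doxorubicin and 3 to 7 for both against rapamycin. Response differences ran from 0 to 1 for both drugs in C5.2 minus HB4a, 3 to 7 for doxorubicin in SKBR3 minus HB4a, and 2 to 10 for doxorubicin and 7 to 16 for both drugs in SKBR3 minus C5.2. Beside called members, 43 of 44 other probe sets above log2 5 had the same sign. The probe sets of DUT, ORC6 and CHAF1A are of a class that can also bind related transcripts.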
